A study of Mus musculus with 30 samples.

Results

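The 10 genes described here are smooth muscle and mesenchymal genes, namely *Acta2*, *Tagln*, *Myl9*, *Cnn1*, *Mfap2*, *Ddr2*, *Pdgfra*, *Pdgfrb*, *Lox* and *Postn*, out of 25400 genes in the count table. They were chosen by name. *Acta2*, *Mfap2* and *Ddr2* were selected on their low level in MBD2aΔGR cells against wild type (WT), so that contrast is given as a description for all 10 genes, with no test. All 10 passed the filter on low counts. RNA was measured by poly(A) RNA-seq in neuronal progenitor cells (NPCs), the stage reached at day 8 of neuronal differentiation from mouse embryonic stem cells (ESCs, line HA36CB1, 129×C57BL/6). There were 24 libraries, 3 from each of 8 lines, and they carry the numbers s01 to s24 in the deposited table. WT cells are s01 to s03 and *Mbd3* KO cells s04 to s06. The remaining lines carry a construct in the *Mbd3* KO background, which was inserted by cassette exchange and is transcribed from the CAG promoter. The constructs are MBD3a (s07 to s09), MBD3ΔMBD, which lacks the methyl-CpG-binding domain (s10 to s12), MBD2a (s13 to s15), MBD2aΔGR, which lacks the glycine-arginine stretch and is labelled MBD2a-GR (s16 to s18), MBD2aR191C, with a point mutation in the methyl-CpG-binding domain that the labels spell R181C and the deposited columns R64C (s19 to s21), and MBD2t, a truncated isoform without the coiled coil (s22 to s24). All lines with a construct thus share the *Mbd3* KO. Each library was made from a clone of its own, except for MBD2t, whose 3 libraries repeat 1 clone, so that their spread holds no difference between clones.

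MBD2 and MBD3 are alternative subunits of NuRD, a chromatin complex with nucleosome remodelling and histone deacetylase activity. Smooth muscle cells contract with a set of proteins that includes smooth muscle actin, transgelin, calponin and myosin light chain. Their genes are classical targets of serum response factor (SRF) and its cofactors of the myocardin family, which act through CArG boxes in promoters. Mesenchymal cells, such as fibroblasts and pericytes, share part of this set, carry receptors for PDGF and collagen, and secrete and crosslink collagen and elastic fibres. In a culture that forms NPCs these genes are not part of the neuronal programme and mark other cells or states. In bulk RNA, fewer cells of a type and less RNA per cell cannot be told apart.

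Library totals lay between 27993858 and 49392806 counts (median 36797095), and levels are given as CPM, the share of a library's TMM-scaled total. A level of 3 counts corresponded to between 0.0606 and 0.115 CPM, which covers counting error only. *Mbd3* had 149 to 157 CPM in WT and 34.2 to 73.8 CPM in *Mbd3* KO, and *Mbd2* reached 280 to 700 CPM with MBD2aΔGR, 253 to 325 with MBD2aR191C and 335 to 356 with MBD2t, but 67.0 to 87.2 with MBD2a against 64.2 to 70.9 in *Mbd3* KO. Libraries s18 (MBD2aΔGR) and s03 (WT) stand apart. The summed level of 7 primitive and parietal endoderm markers was 13268 CPM in it and 758 to 1040 CPM in s16 and s17. In s03, neuron markers summed to 1095 CPM (2210 and 2618 in the other WT libraries), neural crest markers to 134 (328 and 355) and pluripotency markers to 110 (21.1 and 32.0), and no call against WT changed without it among the 7 genes that were not selected. Genes of chromosome 1, where *Ddr2* lies, had a median deviation from the other libraries of the line of -0.40 (log2) in s04, 0.30 in s06 and -0.33 in s15. Genes of chromosome 19, where *Acta2* lies, deviated by 0.24 in s09. The part of these shifts in the results was not tested, and values without s18, and for *Ddr2* and *Acta2* without s04, s09 or s15, are given beside the results.

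Promoters are shown because the contractile genes are known for a shared element. RefSeq promoter sequences of build GRCm38.p6, from 250 bases before to 50 bases after a start site, were used for 7 of the 10 genes. *Tagln*, *Pdgfrb* and *Lox* were not among them, so the promoters of *Acta2* and *Tagln* were not compared. The CArG box was searched on both strands, as were a CArG-like box (1 of its 6 central A or T letters replaced by C or G, a form added after the strict matches were seen) and the TEAD element CATTCC. The element CANNTG was searched likewise. In the sequences printed, no CArG or CArG-like box overlapped another motif searched. Over all 32851 promoters of this length, 1.63% held a CArG box, 8.5% a CArG-like box, 14.7% CATTCC and 72.3% CANNTG. Capitals mark CArG and CArG-like boxes, and positions count bases from the start site.
*Acta2* (chr19:34255324-34255623, minus strand): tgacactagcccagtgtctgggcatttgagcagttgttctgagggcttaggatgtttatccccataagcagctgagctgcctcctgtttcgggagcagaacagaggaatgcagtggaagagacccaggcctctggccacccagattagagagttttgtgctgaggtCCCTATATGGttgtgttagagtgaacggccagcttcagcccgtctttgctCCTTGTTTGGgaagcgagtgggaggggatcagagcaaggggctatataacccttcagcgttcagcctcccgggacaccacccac
*Myl9* (chr2:156775214-156775513, plus strand): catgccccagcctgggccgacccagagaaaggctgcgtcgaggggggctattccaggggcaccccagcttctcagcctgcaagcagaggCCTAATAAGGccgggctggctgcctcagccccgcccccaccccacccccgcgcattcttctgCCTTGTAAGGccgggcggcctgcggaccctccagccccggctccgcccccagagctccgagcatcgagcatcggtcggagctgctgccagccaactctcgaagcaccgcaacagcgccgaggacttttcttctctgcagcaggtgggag
*Cnn1* (chr9:22099003-22099302, plus strand): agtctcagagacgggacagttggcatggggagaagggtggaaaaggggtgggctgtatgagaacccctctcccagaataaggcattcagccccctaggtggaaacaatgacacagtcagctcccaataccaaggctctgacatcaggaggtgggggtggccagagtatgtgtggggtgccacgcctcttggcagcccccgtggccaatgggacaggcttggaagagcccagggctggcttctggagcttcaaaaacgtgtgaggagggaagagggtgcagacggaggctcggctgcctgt
*Mfap2* (chr4:141010174-141010473, plus strand): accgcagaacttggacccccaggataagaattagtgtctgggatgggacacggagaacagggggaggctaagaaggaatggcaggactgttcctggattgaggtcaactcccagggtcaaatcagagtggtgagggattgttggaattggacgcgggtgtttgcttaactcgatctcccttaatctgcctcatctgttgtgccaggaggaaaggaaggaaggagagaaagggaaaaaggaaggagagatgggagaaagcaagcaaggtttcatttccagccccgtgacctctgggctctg
*Ddr2* (chr1:170088895-170089194, minus strand): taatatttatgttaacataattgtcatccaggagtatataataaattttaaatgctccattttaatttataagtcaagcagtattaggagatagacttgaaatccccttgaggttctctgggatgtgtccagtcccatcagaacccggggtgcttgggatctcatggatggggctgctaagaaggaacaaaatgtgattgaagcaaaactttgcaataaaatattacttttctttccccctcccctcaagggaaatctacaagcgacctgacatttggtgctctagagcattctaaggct
*Myl9* held a CArG box at -161 and a CArG-like box at -99. *Acta2* held CArG-like boxes at -84 and -34, CATTCC at -146 and CANNTG in 3 places. *Mfap2* has 2 entries, of which the one printed held CATTCC at -176. No CArG or CArG-like box was in these windows of *Cnn1*, *Mfap2* or *Ddr2*, nor in those of *Pdgfra* and *Postn*. These are matches of letters in a window and not sites of binding.

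Lines were compared by edgeR's quasi-likelihood test, and all 24 libraries entered the same model. Called genes had a Benjamini-Hochberg adjusted p under 0.05, adjusted over the 16582 genes tested, and changed by more than 1 on the log2 scale. The lines compared with WT share the WT libraries, and those were also used to pick *Acta2*, *Mfap2* and *Ddr2*. The changes of these 3 genes against WT are therefore given with their standard errors but no p-value. Comparisons of MBD3a, MBD3ΔMBD, MBD2a, MBD2aR191C and MBD2t with *Mbd3* KO, and of MBD2aR191C with MBD2a, use no library that picked them.

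**Figure D1:**
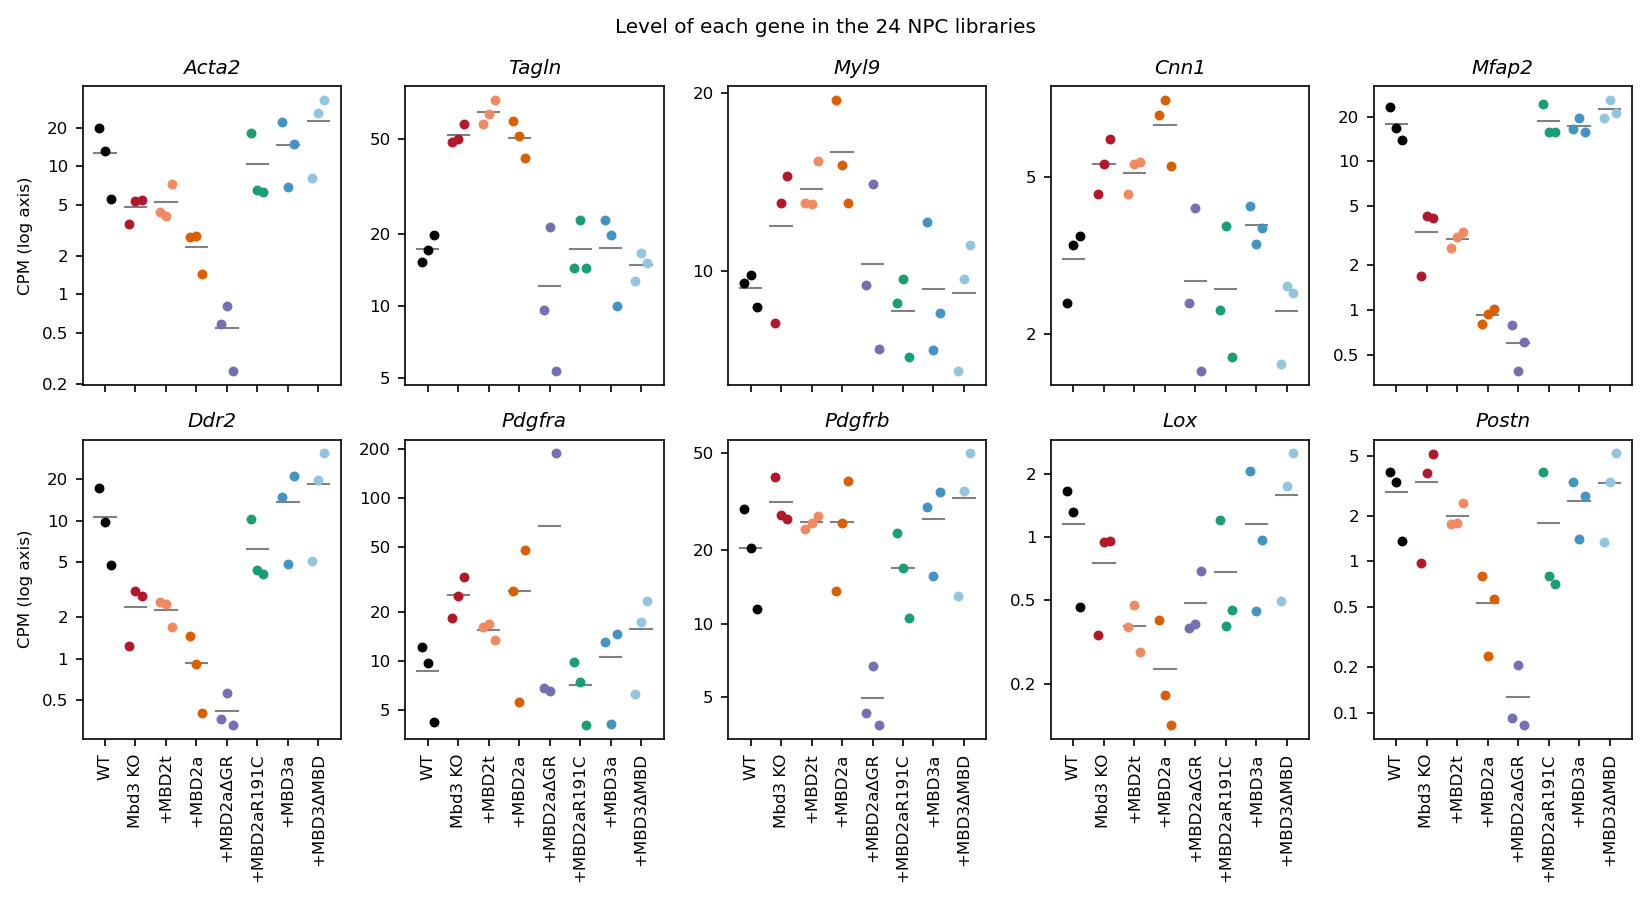
Level of each of the 10 genes (CPM, log axis) in every library, by line; points are libraries and the grey bar is the mean of 3. *Acta2*, *Mfap2* and *Ddr2* were lowest with MBD2aΔGR, where they were selected, while *Tagln* was at 41.6 CPM or more in every *Mbd3* KO, MBD2t and MBD2a library and at 23.02 CPM or less elsewhere.

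*Acta2* encodes smooth muscle α-actin, the defining actin of the contractile set (chromosome 19, 34315580 to 34329826 on NCBIM37, minus strand). It had 19.8, 13.1 and 5.57 CPM in WT and 3.54, 5.33 and 5.47 CPM in *Mbd3* KO. All 3 KO libraries were below WT, although s06 lay just under the lowest WT library. With MBD2t it had 4.39, 4.08 and 7.26 CPM, and with MBD2a 2.79, 2.83 and 1.43 CPM. The MBD2t libraries overlapped WT and the MBD2a libraries lay below both WT and *Mbd3* KO. With MBD2aΔGR, *Acta2* had 0.584, 0.804 and 0.249 CPM, which are 19, 27 and 9 reads. Mean levels in WT and MBD2aΔGR differed 23.5-fold, in the contrast on which the gene was selected. The lines with MBD3a (22.04, 6.94 and 15.0 CPM), MBD3ΔMBD (8.06, 26.1 and 33.2 CPM) and MBD2aR191C (18.1, 6.57 and 6.35 CPM) overlapped WT. Within each of these lines and WT, the highest library was 2.85 to 4.12 times the lowest, so the spread between clones was wide.

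*Acta2* could be tested where no WT or MBD2aΔGR library entered the contrast. It was 1.61 ± 0.55 higher on the log2 scale (± standard error) with MBD3a than in *Mbd3* KO (adjusted p = 0.0181, edgeR) and 2.24 ± 0.55 higher with MBD3ΔMBD (adjusted p = 0.00168, edgeR). MBD2aR191C exceeded MBD2a by 2.16 ± 0.60 (adjusted p = 0.00571, edgeR). Against *Mbd3* KO its rise of 1.12 ± 0.55 with MBD2aR191C was not called (adjusted p = 0.0904, edgeR). The change of -1.04 ± 0.61 with MBD2a was not called either (adjusted p = 0.341, edgeR), although all MBD2a libraries were below all *Mbd3* KO libraries. The call for MBD3a was lost without s04 (1.44, adjusted p = 0.0651, edgeR) or s07 (1.17, adjusted p = 0.114, edgeR) and kept without s09 (1.60, adjusted p = 0.0376, edgeR), and that for MBD2aR191C over MBD2a without s19 (1.44, adjusted p = 0.0691, edgeR). Against WT the log2 change was -1.41 ± 0.55 in *Mbd3* KO, -1.28 ± 0.54 with MBD2t and -2.45 ± 0.60 with MBD2a. It was -0.96 in *Mbd3* KO and -0.83 with MBD2t without s01.

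*Tagln* encodes transgelin (SM22), an actin-binding protein and early marker of smooth muscle (chromosome 9, 45737711 to 45744141, minus strand). It had 15.3, 17.2 and 19.9 CPM in WT and 48.6, 50.0 and 57.6 CPM in *Mbd3* KO. With MBD2t it reached 57.8, 63.6 and 73.2 CPM, and with MBD2a 59.4, 51.3 and 41.6 CPM. These 9 libraries stood above all others, and MBD2t was the only line entirely above *Mbd3* KO. These are lines in which *Acta2* was below most WT libraries, but *Tagln* was not high with MBD2aΔGR, where *Acta2* was lowest. Against WT it rose by 1.58 ± 0.34 (log2) in *Mbd3* KO (adjusted p = 0.000669, edgeR), by 1.89 ± 0.35 with MBD2t (adjusted p = 0.000132, edgeR) and by 1.54 ± 0.34 with MBD2a (adjusted p = 0.00103, edgeR). With MBD3a (23.02, 19.8 and 10.03 CPM), MBD3ΔMBD (12.8, 16.6 and 15.2 CPM) and MBD2aR191C (14.4, 23.02 and 14.4 CPM) it overlapped WT and was called lower than in *Mbd3* KO. With MBD2aΔGR it had 9.67, 21.4 and 5.35 CPM and fell by 2.06 ± 0.35 (log2) against MBD2a (adjusted p = 0.000285, edgeR), or by 1.70 without s18. A 65 bp stretch of its exons is shared with *Pcsk7* on the opposite strand, and whether the counting used strand is not given in the sources used here.

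The ratio of *Tagln* to *Acta2* reads within a library sets both changes side by side. It was 0.773 to 3.56 in WT and 9.38 to 13.7 in *Mbd3* KO. With MBD2t it was 10.1 to 15.6 and with MBD2a 18.1 to 29.1. In the MBD3a, MBD3ΔMBD and MBD2aR191C libraries it was between 0.457 and 3.50, and 3 of these 9 libraries lay below the lowest WT library. MBD2aΔGR was unlike these lines, with ratios of 16.6, 26.7 and 21.4. Its *Tagln* level overlapped WT, and the high ratio came with the low *Acta2* level by which that gene was selected.

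**Figure D2:**
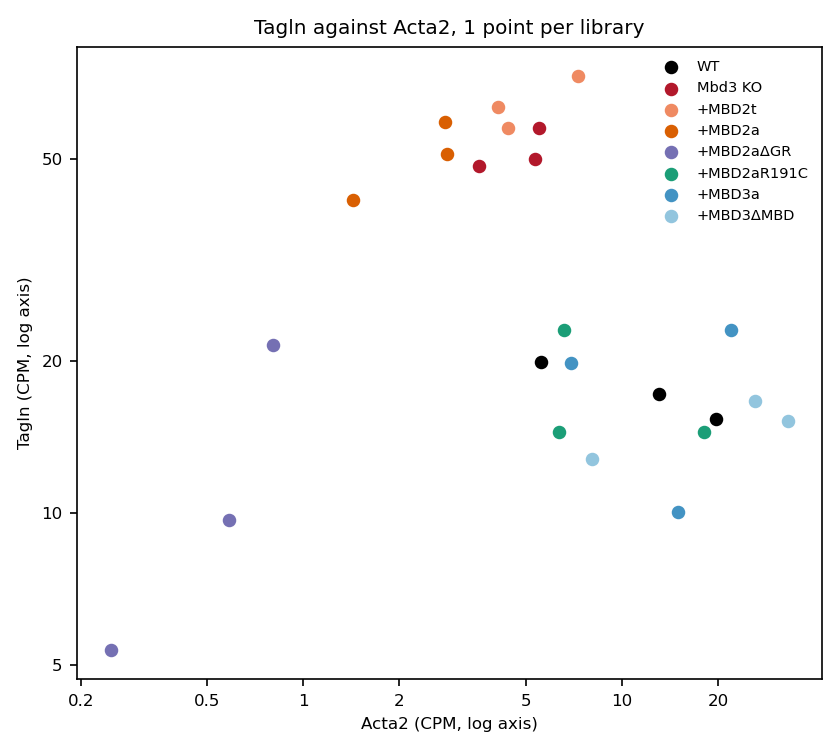
*Tagln* against *Acta2* (CPM, log axes), 1 point per library, coloured by line. *Mbd3* KO, MBD2t and MBD2a libraries lie at high *Tagln* and low *Acta2*, while MBD2aΔGR libraries are low in *Acta2*, with *Tagln* between 5.35 and 21.4 CPM.

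*Myl9* encodes the regulatory light chain of smooth muscle myosin (chromosome 2, 156601156 to 156607394, plus strand). Its highest line mean was 1.85 times its lowest, the smallest such ratio of the 10 genes, and it had 9.55, 9.85 and 8.69 CPM in WT, 8.17, 13.01 and 14.5 in *Mbd3* KO, 12.96, 13.02 and 15.4 with MBD2t and 19.5, 15.1 and 13.02 with MBD2a. The MBD2t and MBD2a libraries were all above WT, and the *Mbd3* KO libraries overlapped it. No change against WT was called. The log2 changes were 0.76 ± 0.25 with MBD2a (adjusted p = 0.0156, edgeR), which passed the p-value but not the fold change limit, and 0.56 ± 0.25 with MBD2t (adjusted p = 0.0621, edgeR).

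*Cnn1* encodes calponin, a thin filament protein of differentiated smooth muscle (chromosome 9, 21903725 to 21914074, plus strand). It had 2.39, 3.36 and 3.53 CPM in WT, 4.52, 5.38 and 6.21 in *Mbd3* KO, 4.51, 5.38 and 5.46 with MBD2t and 7.17, 7.84 and 5.33 with MBD2a. All 9 libraries of these lines were above all WT libraries. Only the rise with MBD2a was called among these 3 comparisons, at 1.13 ± 0.29 log2 (adjusted p = 0.0028, edgeR), and it fell under the fold change limit without s01 (0.96). The rises of 0.80 ± 0.29 in *Mbd3* KO (adjusted p = 0.0233, edgeR) and 0.72 ± 0.29 with MBD2t (adjusted p = 0.0368, edgeR) missed the fold change limit. *Cnn1* was lower with MBD3ΔMBD than in *Mbd3* KO, with a log2 change of -1.21 ± 0.30 (2.29 ± 0.53 CPM, SD, n = 3; adjusted p = 0.00184, edgeR). With MBD2aR191C it was lower than with MBD2a, with a log2 change of -1.38 ± 0.29 (adjusted p = 0.000743, edgeR), and the change with MBD2aΔGR was -1.32 ± 0.29 (adjusted p = 0.00219, edgeR). The latter was -1.04 without s18, still called, and its call was lost with only the 2 lines in the fit (-1.33, adjusted p = 0.0629, edgeR). The contractile genes split in contrasts without a library that picked *Acta2*. With MBD3ΔMBD against *Mbd3* KO and with MBD2aR191C against MBD2a, *Acta2* was called higher and *Tagln* and *Cnn1* lower. With MBD3a against *Mbd3* KO, *Acta2* was called higher and *Tagln* lower, while *Cnn1* was not called (-0.51). *Myl9* was called in none of these contrasts. With MBD2aR191C against MBD2a its log2 change of -0.89 ± 0.25 (adjusted p = 0.00691, edgeR) missed only the fold change limit. It was called there with upper quartile or library size scaling and without s15 or s20. The lower mean of *Acta2* against WT is left out here, since WT libraries were used to pick it.

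*Mfap2* encodes a glycoprotein of the microfibrils on which elastic fibres form (chromosome 4, 140566333 to 140571899, plus strand). It had 23.1, 16.9 and 13.9 CPM in WT and 1.69, 4.29 and 4.15 CPM in *Mbd3* KO. With MBD2t it had 2.60, 3.10 and 3.38 CPM, with MBD2a 0.806, 0.943 and 1.02 CPM, and with MBD2aΔGR 0.798, 0.387 and 0.609 CPM. These levels form steps without overlap, from WT down to *Mbd3* KO and MBD2t, then MBD2a, then MBD2aΔGR, with only *Mbd3* KO and MBD2t overlapping, although the lowest MBD2a and the highest MBD2aΔGR library differed by few reads (28 and 26). MBD2a lay below *Mbd3* KO, with a log2 change of -1.88 ± 0.35 (adjusted p = 0.00187, edgeR), a call lost when only these 2 lines entered the fit (-1.89, adjusted p = 0.0847, edgeR). MBD2aR191C exceeded MBD2a by 4.33 ± 0.33 (log2) (adjusted p = 3.85e-07, edgeR), with 24.5, 15.7 and 15.7 CPM. MBD3a and MBD3ΔMBD exceeded *Mbd3* KO by 2.34 ± 0.28 and 2.71 ± 0.28 (adjusted p = 2.15e-06 and 3.07e-07, edgeR). The mean in MBD2a was 19.5 times below WT and that in MBD2aΔGR 30.0 times, and leaving out any library of MBD2a or WT kept the log2 change of MBD2a between -4.43 and -4.06.

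*Ddr2* encodes a collagen receptor with tyrosine kinase activity found on mesenchymal cells (chromosome 1, 171902439 to 172040632, minus strand). It had 17.1, 9.71 and 4.80 CPM in WT, 1.23, 3.08 and 2.83 in *Mbd3* KO, 2.58, 2.49 and 1.70 with MBD2t, 1.47, 0.913 and 0.408 with MBD2a and 0.369, 0.566 and 0.332 with MBD2aΔGR. All 4 lines lay below WT in all libraries, and MBD2a and MBD2aΔGR overlapped each other. The lowest *Mbd3* KO and MBD2a libraries, s04 and s15, are those with low chromosome 1. MBD3a exceeded *Mbd3* KO by 2.49 ± 0.63 (log2) and MBD3ΔMBD by 2.96 ± 0.63 (adjusted p = 0.00247 and 0.000477, edgeR), and MBD2aR191C exceeded MBD2a by 2.78 ± 0.74 (adjusted p = 0.00428, edgeR). With each library left out in turn, these ranged from 2.05 to 2.90, 2.34 to 3.39 and 2.18 to 3.27 and stayed called. Against WT, *Ddr2* changed by -2.12 ± 0.63 in *Mbd3* KO, -2.23 ± 0.63 with MBD2t and -3.52 ± 0.72 with MBD2a. The change in *Mbd3* KO was -1.83 without s04 and -1.59 without s01, and that with MBD2a was -3.13 without s15. Its exons share 88 bp with the lincRNA 3110045C21Rik on the opposite strand.

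**Figure D3:**
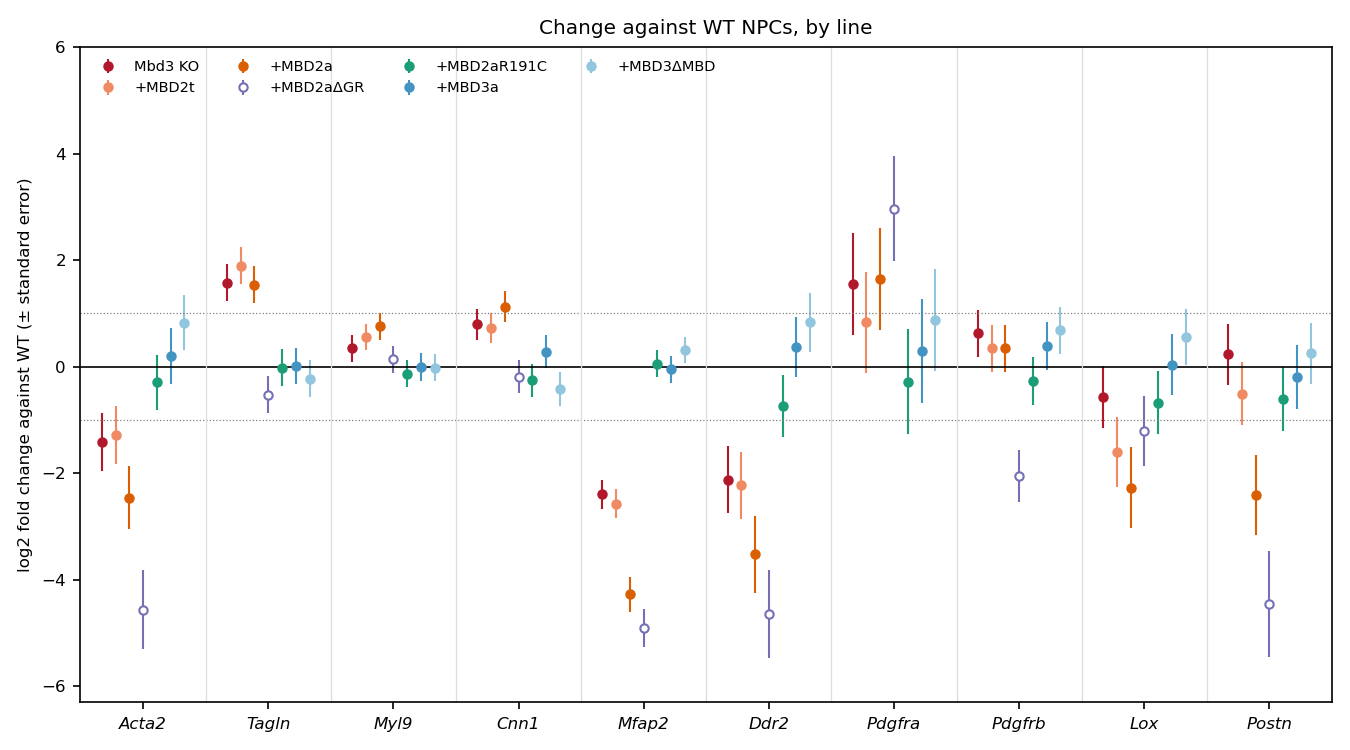
Log2 fold change against WT for each gene and line, with standard errors; dotted lines mark a change of 1 in either direction, and open circles (MBD2aΔGR) were not tested. *Acta2*, *Mfap2* and *Ddr2* lie below 0 and *Tagln* above 0 in *Mbd3* KO, MBD2t and MBD2a.

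*Pdgfrb* and *Pdgfra* encode the receptors for PDGF, of which *Pdgfrb* marks pericytes and smooth muscle precursors and *Pdgfra* marks fibroblasts, oligodendrocyte precursors and primitive endoderm. *Pdgfrb* (chromosome 18, 61204804 to 61244715, plus strand) had 29.5, 20.5 and 11.5 CPM in WT, 40.1, 27.9 and 26.8 in *Mbd3* KO, 24.6, 26.0 and 27.7 with MBD2t and 13.7, 26.0 and 38.5 with MBD2a. These lines overlapped WT and no change was called (log2 changes of 0.62 ± 0.44, 0.35 ± 0.44 and 0.35 ± 0.44). It had 4.30, 6.70 and 3.85 CPM with MBD2aΔGR. These 3 libraries were below every other library of the series, and *Pdgfrb* was not among the genes selected on this line. It fell by 2.68 ± 0.49 (log2) against *Mbd3* KO (adjusted p = 0.000211, edgeR) and by 2.40 ± 0.49 against MBD2a (adjusted p = 0.00107, edgeR). Without s18 these changes were -2.52 and -2.24 and were called. The ratio of *Pdgfrb* to *Ddr2* reads was 1.72 to 2.41 in WT, 9.07 to 32.7 in *Mbd3* KO, 9.31 to 94.3 with MBD2a and 11.6 to 11.8 with MBD2aΔGR.

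*Pdgfra* (chromosome 5, 75548316 to 75594229, plus strand) was called in no comparison tested in the fit of all lines. It had 12.1, 9.68 and 4.19 CPM in WT and 18.4, 25.0 and 32.8 CPM in *Mbd3* KO, where all libraries were above WT but the log2 change of 1.56 ± 0.96 was not called (adjusted p = 0.167, edgeR). With only these 2 lines in the fit it was called (1.58, adjusted p = 0.0159, edgeR), as it was between MBD3a and *Mbd3* KO (-1.32) and between MBD2aR191C and *Mbd3* KO (-1.86). The MBD2a libraries had 27.0, 5.596 and 48.1 CPM. With MBD2aΔGR, s16 and s17 had 6.76 and 6.52 CPM and s18 had 189 CPM (6807 reads), the highest level of any of the 10 genes. Without s18, *Pdgfra* was lower with MBD2aΔGR than in *Mbd3* KO, with a log2 change of -1.93 (adjusted p = 0.0309, edgeR) and lower than with MBD2a, with a change of -2.02 (adjusted p = 0.0307, edgeR), while with s18 the changes were 1.41 ± 0.92 and 1.32 ± 0.92 in the other direction and not called. The sign of this comparison was therefore set by 1 library.

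*Lox* encodes lysyl oxidase, which crosslinks collagen and elastin (chromosome 18, 52675723 to 52689521, minus strand). It was the gene with the lowest level per length in WT, with 1.66, 1.32 and 0.463 CPM, and it had 0.403, 0.177 and 0.127 CPM with MBD2a, which are 14, 6 and 5 reads. Its falls of 2.27 ± 0.76 (log2) with MBD2a (adjusted p = 0.016, edgeR) and 1.60 ± 0.65 with MBD2t (adjusted p = 0.0417, edgeR) were called. The MBD2a libraries lay below WT and the MBD2t libraries overlapped it. The first call was lost without s01 (-1.91), s14 (-2.12) or s15 (-1.94), and the second without any of s01 (-1.24), s02 (-1.49), s22 (-1.62), s23 (-1.79) and s24 (-1.43). With MBD2aΔGR, *Lox* had 0.369, 0.387 and 0.692 CPM and overlapped WT.

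*Postn* encodes periostin, a matrix protein of activated fibroblasts (chromosome 3, 54165031 to 54194961, plus strand). It had 3.92, 3.36 and 1.36 CPM in WT and 0.972, 3.85 and 5.16 CPM in *Mbd3* KO, which overlapped. With MBD2a it had 0.806, 0.236 and 0.561 CPM, a fall of 2.41 ± 0.75 (log2) against WT (adjusted p = 0.0103, edgeR) and of 2.64 ± 0.73 against *Mbd3* KO (adjusted p = 0.0282, edgeR). The fall against *Mbd3* KO was lost without s05 (-2.52), s06 (-2.21), s13 (-3.04), s14 (-2.30) or s15 (-2.69), and with only the 2 lines in the fit (-2.65). With MBD2aΔGR, 3, 7 and 3 reads were counted, and *Postn* fell by 4.69 ± 0.97 (log2) against *Mbd3* KO (adjusted p = 0.000624, edgeR), or by 4.44 without s18. *Postn* was not among the genes selected on MBD2aΔGR, and with *Pdgfrb* it was the other one of the 7 remaining genes whose MBD2aΔGR libraries were all below WT.

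Per kilobase of exon, mean levels in WT ran from 14.8 CPM for *Mfap2*, 11 for *Tagln*, 8.06 for *Myl9* and 7.20 for *Acta2* through 3.75 for *Pdgfrb*, 1.31 for *Cnn1*, 1.28 for *Pdgfra* and 1.25 for *Ddr2* to 0.367 for *Postn* and 0.245 for *Lox*. In *Mbd3* KO, *Tagln* came first with 32.8 CPM per kilobase, followed by *Myl9* with 10.2, *Pdgfrb* with 5.77 and *Pdgfra* with 3.77. *Mfap2* and *Acta2* came next, at 2.79 and 2.69. With MBD2aΔGR, *Acta2*, *Mfap2* and *Ddr2* were at 0.306, 0.494 and 0.0501 CPM per kilobase, while *Myl9* was at 8.86.

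The 7 genes not selected on their readout were counted against WT. In *Mbd3* KO, *Tagln* was called higher and none lower, where 19.6% of all genes tested were called higher and 14.2% lower. With MBD2t, *Tagln* was higher (18.2% of all genes) and *Lox* lower (15.1%). With MBD2a, *Tagln* and *Cnn1* were higher (16.9%) and *Lox* and *Postn* lower (13.7%). The changes of *Acta2*, *Mfap2* and *Ddr2* against WT are not counted, since the WT libraries were used to pick them.

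None of the 10 genes was called against WT with MBD3a (0% of all genes), MBD3ΔMBD (0.0181%) or MBD2aR191C (0.0181%), by edgeR or by DESeq2, and 0 had an unadjusted p under 0.05. Against *Mbd3* KO, *Acta2*, *Mfap2* and *Ddr2* were higher and *Tagln* lower with MBD3a (13.5% of all genes higher, 18.9% lower), and with MBD3ΔMBD the same held, with *Cnn1* also lower (15% and 20.9%). With MBD2aR191C, *Mfap2* was higher and *Tagln* and *Cnn1* lower (13% and 18.1%), and the call of *Cnn1* was lost without s06 (-0.96), s19 (-0.999) or s21 (-0.84). MBD2t differed from *Mbd3* KO in none of the 10 (0.0241% of all genes), by either tool, and 0 had an unadjusted p under 0.05.

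MBD2a was lower than *Mbd3* KO in *Mfap2* and *Postn* (4.4% of all genes lower). The MBD2aR191C and MBD2a constructs differ by a point mutation, but the lines also differed in *Mbd2* RNA (253 to 325 CPM against 67.0 to 87.2), and in the line labelled MBD2a it overlapped *Mbd3* KO (64.2 to 70.9). From RNA, a role of the construct and one of its level cannot be told apart. For protein, the paper reports equal MBD2a and MBD2aΔGR amounts on a Western blot of ESC lines, a panel whose legend does not name MBD2aR191C. In MBD2aR191C 3 genes were higher than with MBD2a (*Acta2*, *Mfap2* and *Ddr2*, where 12.2% of all genes were higher) and 2 lower (*Tagln* and *Cnn1*, 15.1%). MBD2aΔGR was compared in the 7 genes not selected on it. *Tagln*, *Pdgfrb* and *Postn* were lower than in *Mbd3* KO (15.3% of all genes lower). *Cnn1* missed the fold change limit there (-0.99, adjusted p = 0.0105, edgeR) and was called with 3 other scalings, both other filters, DESeq2, and without s04, s05 or s17. *Tagln*, *Cnn1* and *Pdgfrb* were lower than with MBD2a (10.6%). The 3 MBD2aΔGR libraries were all below the 3 WT libraries for 5 of the 10 genes, which include the 3 selected ones, and all above for none, where 9.46% and 9.32% of all genes were all below and all above. From these counts nothing is read for the selected genes.

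*Acta2* shares most of its coding sequence with the other actin genes, so reads could be assigned between them. *Acta1*, the skeletal muscle actin, had 1.29 to 2.14 CPM in WT, 12.01 to 17.8 in *Mbd3* KO, 13.3 to 14.3 with MBD2t and 0.430 to 0.834 with MBD2aΔGR. It was higher in *Mbd3* KO and MBD2t than in WT, while the mean of *Acta2* was lower there. WT libraries were used to pick *Acta2*, and its MBD2t libraries overlapped WT. *Actg2*, the enteric smooth muscle actin, had 2 to 5 reads in WT and 30 to 32 in *Mbd3* KO. The cytoplasmic actins *Actb* (1572 to 2253 CPM) and *Actg1* (2026 to 3323 CPM) had narrow ranges over the 24 libraries. How the counting treated reads that fit several actins is not given in the sources used here, and the level of *Acta2* is uncertain to that extent.

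Genes of 5 related lists were counted over all genes tested, and these lists were written with earlier results of these data known. Beside them stand the shares over all genes tested, which were 19.6% higher and 14.2% lower in *Mbd3* KO, 18.2% and 15.1% with MBD2t, and 16.9% and 13.7% with MBD2a. Of 21 further contractile genes tested, 11 were higher and 2 lower in *Mbd3* KO than in WT, 8 higher and 3 lower with MBD2t and 6 higher and 4 lower with MBD2a. Their median log2 changes were 1.15, 0.92 and 0.29, beside -0.03, -0.04 and -0.01 over all genes. Leaving out genes of low level (mean log2 CPM under 1), the largest called changes in *Mbd3* KO were those of *Acta1* (3.00 ± 0.33, adjusted p = 8.44e-07, edgeR), *Lmod1*, a leiomodin that nucleates actin filaments (2.28 ± 0.32), and *Cnn2*, the calponin of non-muscle cells (258.6 ± 40.7 CPM against 58.7 ± 4.77 CPM, SD, n = 3). *Myh11*, the smooth muscle myosin heavy chain, rose by 2.04 (adjusted p = 0.000137, edgeR). *Cnn3* and *Nexn* fell by 1.35 and 1.56, and *Des* (0.43) and *Mylk* (0.23) were not called. With MBD2aΔGR, 13 of the 21 were lower than in *Mbd3* KO (15.3% of all genes) and 7 lower than with MBD2a (10.6%). The fall against *Mbd3* KO was not particular to this line. There, 10 were lower with MBD3a (18.9%), 11 with MBD3ΔMBD (20.9%) and 11 with MBD2aR191C (18.1%). In the same comparisons 2 (13.5%), 3 (15%) and 2 (13%) were higher. With MBD2aR191C against MBD2a 5 were lower (15.1%) and 3 higher (12.2%).

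Of 10 SRF, myocardin and cofactor genes, only *Tead3* and *Tead4*, which bind CATTCC elements, were called in *Mbd3* KO. Both rose, *Tead4* from 2.11 ± 0.79 to 20.4 ± 2.67 CPM (SD, n = 3; log2 change 3.27, adjusted p = 1.84e-05, edgeR). With MBD2t these and *Nkx2-3* rose, and with MBD2a *Tead4* and *Gata6*. *Srf* and *Myocd* were thus not called in these 3 comparisons. Of 18 genes of PDGF and TGF-β signalling, 7 were higher (19.6% of all genes) and 3 lower (14.2%) in *Mbd3* KO, with the ligand genes *Pdgfa* (11.8 ± 2.50 to 72.5 ± 17.9 CPM) and *Pdgfb* (10.3 ± 2.59 to 52.1 ± 8.39 CPM) among the called rises. The receptor genes *Pdgfra* and *Pdgfrb* were not called in the same comparison.

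Of 19 mesenchymal transcription factor genes tested, 6 were higher (19.6% of all genes) and 6 lower (14.2%) in *Mbd3* KO, 3 (18.2%) and 7 (15.1%) with MBD2t, and 4 (16.9%) and 8 (13.7%) with MBD2a. *Zeb2*, which neural cells also express, fell from 106 ± 39.3 to 3.96 ± 1.76 CPM in *Mbd3* KO and *Msx1* from 58.4 ± 0.82 to 2.46 ± 0.92 CPM, while *Foxf1*, a factor of visceral mesenchyme, rose from 1.62 ± 0.63 to 33.6 ± 10.8 CPM. With MBD2a, *Prrx1*, a factor of limb and craniofacial mesenchyme, fell from 15.8 ± 6.06 to 0.770 ± 0.206 CPM (log2 change -4.36, adjusted p = 2.46e-05, edgeR). Of 25 elastic fibre and matrix genes, 4 were higher (19.6% of all genes) and 6 lower (14.2%) in *Mbd3* KO, 3 (18.2%) and 8 (15.1%) with MBD2t, and 4 (16.9%) and 7 (13.7%) with MBD2a. Shares of higher genes in this list were thus near or under those of all genes. *Vim*, an intermediate filament gene that neural progenitors also express, fell from 1054 ± 108 to 70.9 ± 42.6 CPM, and *Mfap4* from 30.2 ± 11.9 to 10.2 ± 5.39 CPM in *Mbd3* KO. Other microfibril genes went both ways there. *Mfap5* rose by 3.59 (adjusted p = 1.28e-05, edgeR) and *Ltbp2* by 3.21 (adjusted p = 6.03e-06, edgeR), while *Fbn2* fell by 1.13 (adjusted p = 0.0423, edgeR). None of the 5 lists had a called gene with MBD3a, MBD3ΔMBD or MBD2aR191C against WT. The list genes given next for MBD2aΔGR were named because they were called against WT, and only their levels are shown. MBD2aΔGR had 0.364 ± 0.0849 CPM of *Twist2* and 2.96 ± 1.74 of *Prrx1* against 5.11 ± 1.47 and 15.8 ± 6.06 in WT. It had 1.77 ± 0.72 CPM of *Loxl1*, a relative of *Lox*, against 10.6 ± 1.46. Other genes of the lists had higher means there but spreads close to or above the mean, with 1349 ± 1955 CPM of *Sparc* against 219 ± 23.9 in WT, 55.0 ± 72.1 of *Gata6* against 9.30 ± 1.57 and 75.3 ± 59.2 of *Ccn2* against 28.1 ± 6.60.

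**Figure D4:**
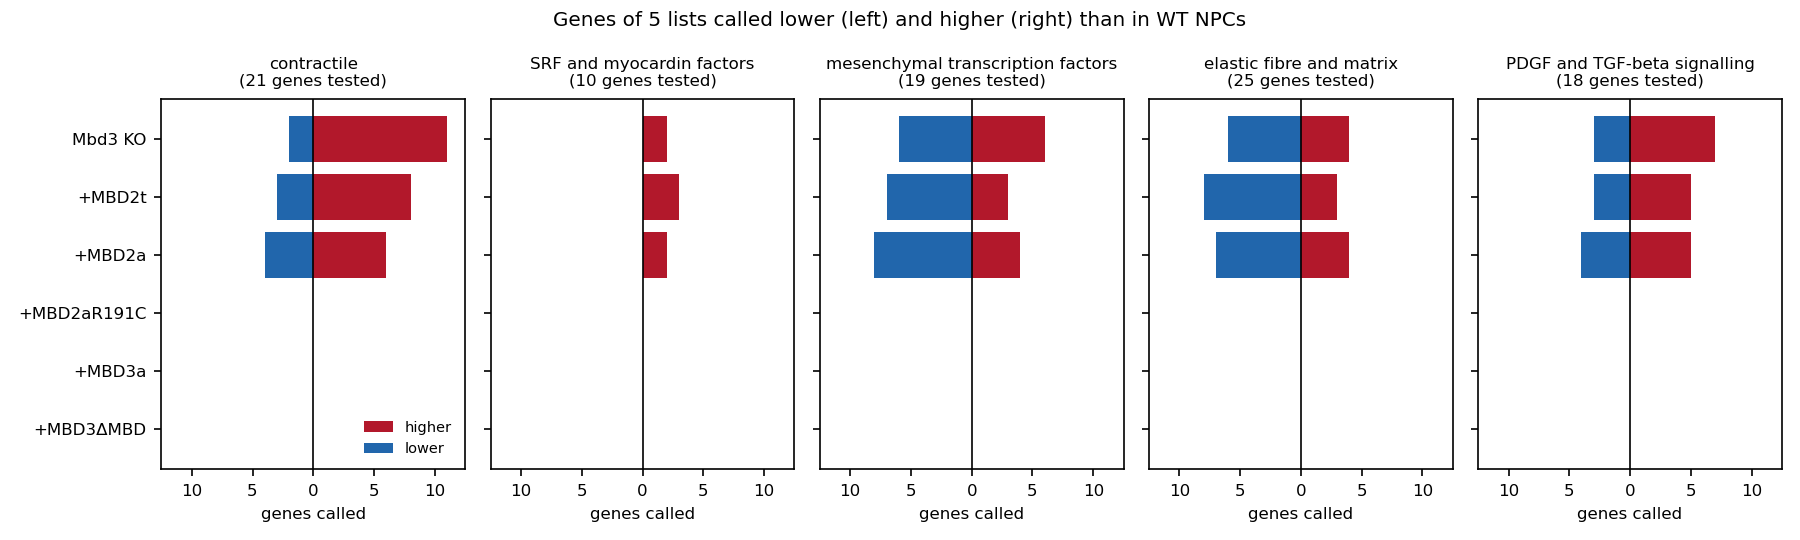
Number of genes of each list called lower (left, blue) and higher (right, red) than in WT, by line. Contractile genes were more often higher than lower in *Mbd3* KO (11 and 2), and no gene of any list was called with MBD2aR191C, MBD3a or MBD3ΔMBD.

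Markers of other cells also differed between the lines. The summed level of 8 fibroblast markers was 103 to 410 CPM in WT, 29.4 to 124 in *Mbd3* KO, 45.3 to 47.3 with MBD2t, 11.3 to 73.2 with MBD2a and 15.2 to 44.1 with MBD2aΔGR. With MBD3a it was 141 to 399 CPM, with MBD3ΔMBD 137 to 619 and with MBD2aR191C 80.3 to 328. The sum was thus below WT in every MBD2t, MBD2a and MBD2aΔGR library, while *Mbd3* KO overlapped WT. *Col3a1* made up much of it in WT (62.0 to 236 CPM) and had 1.89 to 23.2 CPM in *Mbd3* KO. *Col1a1* (15.8 to 28.1 CPM) and *Col1a2* (9.66 to 72.9 CPM) overlapped WT in *Mbd3* KO. *Fap*, *S100a4* and *Lum* had at most 3 reads in every MBD2a and MBD2aΔGR library, but *S100a4* was also near this floor in WT (0.0243 to 0.110 CPM). Within WT, s03 had both the lowest sum and the lowest *Acta2*, *Mfap2*, *Ddr2*, *Pdgfrb*, *Lox* and *Postn*. *Tagln* was highest in s03 among the WT libraries. The part of fibroblast RNA in these results was not tested.

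Of 6 pericyte markers, *Abcc9* had at most 3 reads in WT and MBD2aΔGR, and the sum was 121 to 315 CPM with MBD2aΔGR, 151 to 292 in WT and 120 to 164 in *Mbd3* KO. Most of the sum was *Notch3* (112 to 307 CPM with MBD2aΔGR), which is not particular to pericytes. *Rgs5*, a pericyte marker, had 0.184 to 0.328 CPM with MBD2aΔGR, 1.51 to 2.64 in WT and 2.29 to 10.00 in *Mbd3* KO. With MBD2a, where *Pdgfrb* overlapped WT, *Rgs5* had 0.586 to 1.64 CPM. The other markers did not follow *Pdgfrb* with MBD2aΔGR, since *Cspg4*, *Kcnj8*, *Notch3* and *Anpep* overlapped WT. *Anpep* had 8.08 to 14.7 CPM there and 6.39 to 10.2 in WT. Of 6 skeletal muscle markers, 4 had at most 3 reads in WT (*Myod1*, *Myog*, *Myf5* and *Myf6*), and the 6 summed to at most 8.01 CPM in every library. The 6 cardiac muscle markers summed to 6.23 to 9.01 CPM in WT and 14.7 to 17.6 in *Mbd3* KO. Trophoblast markers summed to 81.6 to 168 CPM in WT, 1126 to 1482 in *Mbd3* KO, 900.0 to 1026 with MBD2t and 313 to 1131 with MBD2a. The last 3 are also the lines with high *Tagln*, but by library the sum did not follow *Tagln* within MBD2a or MBD2aΔGR. With MBD2a, s15 had the lowest *Tagln* (41.6 CPM) and the highest sum, while s13 and s14 had sums of 319 and 313. With MBD2aΔGR, s18 had 5.35 CPM of *Tagln* and a sum of 420, against 84.1 and 96.7 in s16 and s17. The summed level of neural crest markers was lower with MBD2t and MBD2a than in WT and just overlapped it in *Mbd3* KO. It was 134 to 355 CPM in WT, 85.5 to 136 in *Mbd3* KO and 81.0 to 94.3 with MBD2t. With MBD2a it was 48.0 to 60.5 CPM, but 67.6 to 192 with MBD2aΔGR. Not all markers followed the sum. *Sox10* had 0.303 to 0.779 CPM in WT but 7.08 to 67.5 in *Mbd3* KO and 8.94 to 10.9 with MBD2t. With MBD2a *Sox10* overlapped WT (0.460 to 10.7 CPM). *Ets1* was above all WT libraries in *Mbd3* KO and MBD2t, and below them with MBD2a. *Foxd3*, *Tfap2a* and *Tfap2b* were below all WT libraries in *Mbd3* KO, MBD2t and MBD2a. Pluripotency markers summed to 21.1 to 110 CPM in WT, 244 to 730 in *Mbd3* KO, 395 to 491 with MBD2t and 267 to 484 with MBD2a. Endothelial markers summed to 62.7 to 81.6 CPM in WT, 128 to 227 in *Mbd3* KO and 10.1 to 15.3 with MBD2aΔGR. The labelled cell type was present by its markers, since neural progenitor markers (7 of 8 in the table) summed to 1455 to 1766 CPM in WT and neuron markers to 1095 to 2618 CPM, but to 261 to 347 and 97.0 to 194 CPM in *Mbd3* KO. Their part in the changes of the 10 genes was not tested.

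The highest *Pdgfra* level came with the highest endoderm markers. In s18 *Gata4* reached 291 CPM, *Col4a1* 10055 CPM and *Dab2* 242 CPM, against at most 8.20, 376 and 19.3 CPM in WT. The MBD2a libraries with 27.0 and 48.1 CPM of *Pdgfra* had endoderm sums of 2344 and 2858 CPM, and the third, with 5.596 CPM, had 411 CPM. The sum in WT was 477 to 621 CPM and in *Mbd3* KO 902 to 1393 CPM.

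**Figure D5:**
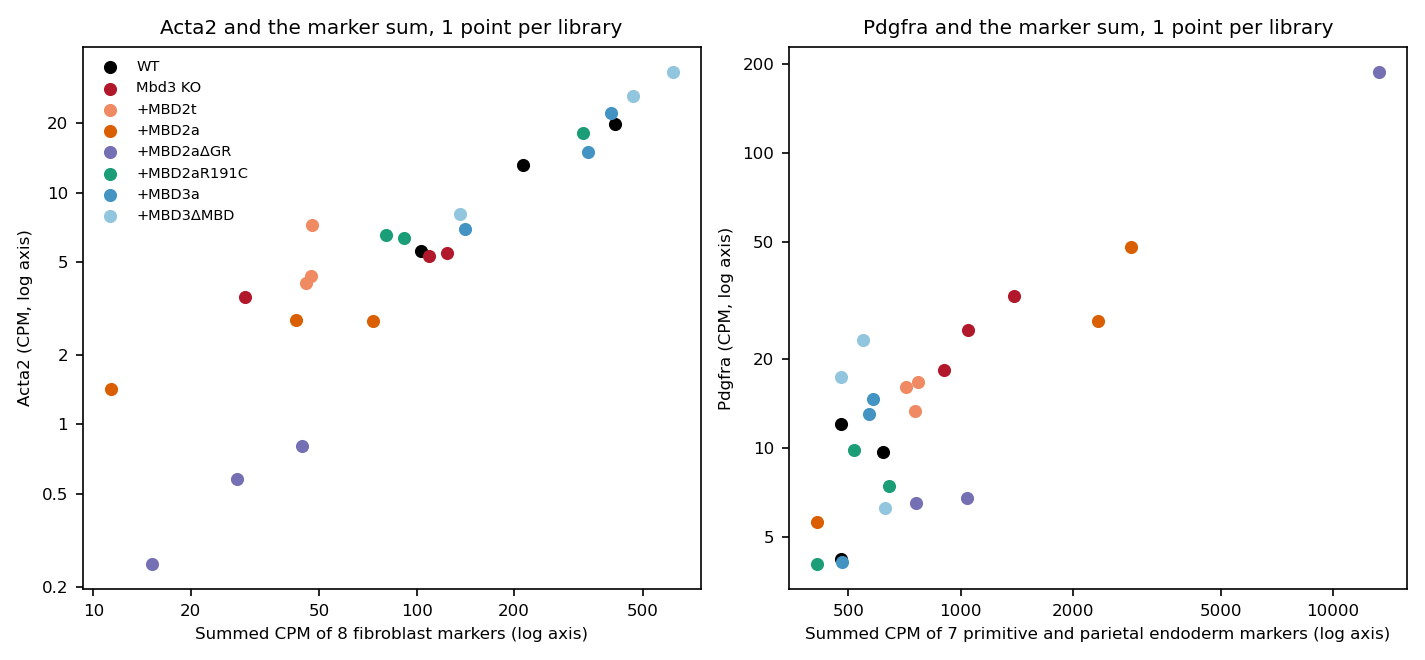
*Acta2* against the summed level of 8 fibroblast markers (left) and *Pdgfra* against that of 7 primitive and parietal endoderm markers (right), all in CPM on log axes, 1 point per library. *Acta2* was low in libraries with few fibroblast reads, and the MBD2aΔGR library at the upper right has 189 CPM of *Pdgfra* and an endoderm sum of 13268 CPM.

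The genes most like a member over the 24 libraries were taken by Pearson's r of log2 CPM, as a description in which libraries share lines. For *Acta2* they were *Cygb* (r = 0.978), *Col1a1*, the main fibrillar collagen gene (0.973), and *Scube1* (0.948). For *Ddr2* they were *Col26a1* (0.961), *Alx4* (0.956) and *Cygb* (0.952), and for *Mfap2* *Eya2* (0.946), *Col26a1* (0.942) and *Rftn2* (0.940). *Cygb* and *Col26a1* thus each came up for 2 of these genes. For *Tagln* they were *Mab21l4* (0.945), *Fam131c* (0.941) and *Cavin1*, a coat protein of caveolae (0.940), and for *Pdgfra* *Bmp2* (0.918), *Creb3l2* (0.913) and *Spon2* (0.911).

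Within lines, some of the genes also moved together. After the line mean was taken off, r among *Acta2*, *Ddr2*, *Pdgfrb*, *Lox* and *Postn* lay between 0.41 and 0.87 (median 0.75, 10 pairs, 24 libraries), and among *Tagln*, *Cnn1* and *Myl9* between 0.66 and 0.79. Both groups were formed after the values were seen. Between them r ran from -0.07 to 0.74 over 15 pairs (median 0.29), so they were not separate. *Myl9* reached 0.74 with *Acta2* and 0.72 with *Postn* but 0.31 with *Pdgfrb*, beside 0.66 with *Tagln* of its own group. *Pdgfra* was put in neither group, and its r with *Postn* was 0.38, or 0.74 without s18. *Mfap2* was outside both groups, with r from -0.23 (*Tagln*) to 0.49 (*Postn*). In WT the highest library was 3.55 times the lowest for *Acta2* and 1.67 times for *Mfap2*, while in *Mbd3* KO these were 1.54 and 2.55 times.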

How the data were processed

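Poly(A) RNA-seq of day 8 NPCs was used, 24 libraries of 8 lines, grouped by the sample labels and the group names of the columns. The authors trimmed reads with Trim Galore 0.6.6, aligned them with STAR 2.7.7a to NCBIM37 (mm9) with GENCODE mouse annotation and counted reads per gene with qCount of QuasR 1.38.0. The file deposited by the authors holds raw counts of 25400 genes, whose identifiers were all found in the annotation. The library kit keeps strand and STAR was run with its defaults, while how the counting treated strand and reads that fit several genes is not given in the sources used here. Clones and their cultures were taken as replicates. ChIP-seq samples were not analysed here.

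From the counts, filterByExpr by line left 16582 genes, which were TMM-scaled and tested with edgeR 4.0.16 (R 4.3.3), quasi-likelihood F test, all libraries in 1 fit. glmQLFit estimated the dispersion itself, and this was set after counts of calls under both this and estimateDisp had been seen. A standard error is the size of the log2 change over the root of its F value. On simulated counts for *Mbd3* KO against WT (15857 genes), 127 of 129 genes changed 4-fold or 8-fold were recovered and 7 unchanged genes called. Correlations used log2 CPM with a prior count of 1. Replicate pairs differed by more than sampling noise (chi-square per gene 3.42 to 303).

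The 10 genes, the lists and the markers were chosen with earlier results of these data known. Named list genes were, per list and comparison with WT, up to 3 called genes with the largest change and a mean log2 CPM of at least 1. One gene that this rule names is not reported here. *Myh11*, *Cnn3*, *Nexn*, *Des*, *Mylk*, *Nkx2-3*, *Mfap5*, *Ltbp2* and *Fbn2* are named outside this rule, with their values known. The 3 genes most like 5 members were named too. Alternatives were other scalings, filters, thresholds and tools (DESeq2 1.42.0), fits of 2 lines, and each library left out. A two-sided exact permutation of 3 libraries against 3 reaches p = 0.1 at the lowest.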

Additional observations from a re-analysis of the deposited data

How the results depend on the processing

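Of 219 recomputed counts of genes called, 204 stayed within 1.5 times the main value. Against WT these counts hold the 3 selected genes and are a description. For MBD2t against WT (5 called, of which only *Tagln* and *Lox* were not selected), 3 were called with RLE, upper quartile or library size scaling and with no filter. With a library left out, 3 to 5 were called. For MBD2a against *Mbd3* KO (2 called), 0 were called with only the 2 lines in the fit and 1 to 2 with a library left out. For *Mbd3* KO against WT (4 called) 2 to 4 were called with a library left out, with 2 called when s01 was left out. *Tagln*, the only one of these not selected, stayed called with each library left out. Of the changes of single genes, 1934 kept their side of the threshold, 45 calls were lost and 28 gained. The direction turned for *Pdgfra*, which with a library left out ranged from -1.93 to 1.88 (MBD2aΔGR against *Mbd3* KO) and from -2.02 to 2.02 (against MBD2a), both lowest without s18. With the dispersion from estimateDisp, an alternative added after seeing the data, *Postn* was called higher with MBD2aR191C than with MBD2a (1.76). The change of *Acta2*, a selected gene, with MBD2t against WT was -1.29 there. The cause was not tested. No paired analysis was possible because the columns carry no replicate number. Depth limits *Lox* with MBD2a and *Postn* with MBD2aΔGR, which had at most 14 and 7 reads in a library.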
